A study of Mus musculus with 8 samples.

Results

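The aminoacyl-tRNA synthetases are the enzymes that join each amino acid to its transfer RNA. Their genes were found on the array by symbol: a capital letter followed by ars, with or without a final 1 or 2, together with Farsa, Farsb and Eprs. The rule found 26 of the 12393 genes that have a probe set of their own, on 48 of the 22690 probe sets. The probe set with the highest mean signal over all arrays stood for its gene. Of the 26, 18 encode cytosolic enzymes and 8, whose symbols end in 2, mitochondrial ones. The arrays measured messenger RNA in MCE301 cells, a colonic epithelial line from mice that carry a temperature-sensitive SV40 large T-antigen transgene, which every group shares. Sodium butyrate, a histone deacetylase inhibitor made in the colon by bacteria that ferment fibre, was added at 2 mM, and RNA was taken at 0, 6, 12 and 24 h to find the genes that respond. Each time has 2 arrays, which makes 8. All are of 1 cell line, and no label says that arrays of 1 time are separate cultures, so p-values measure only the spread between arrays, which may be technical. With no untreated cells at 6, 12 or 24 h, butyrate and time in culture cannot be told apart.

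A synthetase activates its amino acid with ATP and transfers it to the matching tRNA, and the loaded tRNA then enters the ribosome. Mammalian cells hold one set of these enzymes in the cytosol and another in mitochondria, mostly from separate nuclear genes, although Gars and Kars each supply both compartments. Several cytosolic enzymes sit with 3 scaffold proteins in the multi-synthetase complex. When amino acids run short, uncharged tRNA activates the kinase GCN2, and the transcription factor ATF4 then induces many cytosolic synthetase genes along with amino acid transporters and biosynthetic enzymes.

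Signals are linear probe-set intensities as deposited, with a 2% trimmed mean of 500.2 on every array. Differences are on the scale of log2(signal + 32), tested with limma over the 7340 genes that had at least 2 of 8 arrays above the overall median signal, and a gene counts as called where the p after Benjamini-Hochberg adjustment is under 0.05. Signals are given with the SD of 2 arrays and log2 changes with their standard error. Of 15 epithelial marker genes measured, 11 were above the median signal of 144.7 on every array, including Krt8, Krt18, Epcam, Cdh1 and Cdx2, while Vil1, Cdx1, Car1 and Slc26a3 were below it on every array. All of the 7 fibroblast, 5 endothelial and 4 neuronal markers were below it on every array, as were 5 of 7 immune markers including Ptprc, while the immune markers Csf1r and Cd68 were above it. In bulk RNA, fewer cells that express a gene and less RNA per cell cannot be told apart.

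The synthetase genes, like all genes tested, split in direction as butyrate exposure went on. At 24 h against 0 h, 24 of the 26 had passed the filter on low signals, and 6 of these were lower and 4 higher, or 41.7%, beside 48.1% of all genes tested (23.5% lower and 24.6% higher). The share called was thus near that of the whole array. The 6 that fell were Vars, Gars, Tars, Farsa, Hars and Iars, which load valine, glycine, threonine, phenylalanine, histidine and isoleucine. The 4 that rose were Rars, Kars, Qars and Wars, which load arginine, lysine, glutamine and tryptophan. The 24 h arrays did not overlap those of 0 h for 20 of the 24 genes, 8 above and 12 below, beside 74.8% of all genes. The median log2 change was -0.13 over the 24 synthetase genes and 0.04 over all genes. The count of rises was 1 with no filter on low signals, where 3051 of 12393 genes were called, beside 3530 of 7340 in the main fit. It was 6 with the replicate number as a block, where 3969 of 7340 were called and Nars was added to the falls. Fewer rises were called without some single arrays of 0 or 24 h, where fewer of all genes were called too.

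Promoter sequences are shown for 6 of the 10 genes called at 24 h, since these moved in opposite directions, and for Aars and Yars, which hold a motif of the amino acid response. The RefSeq promoter table (build GRCm38.p6) held an entry for 17 of the 26 genes, from 250 bases before to 50 bases after the annotated start. Those not in it are Vars, Hars, Rars and Wars among the called genes, and Cars, Lars, Nars, Hars2 and Pars2. The motif TGATGNAA, the core of the element through which ATF4 acts on genes of the amino acid response, was searched on both strands. It stood in 5 of the 17 entries, those of Gars, Tars, Iars, Aars and Yars, and in 3.97% of all 32851 entries. The lines below run 5′ to 3′ along the gene from base -120 to base 20 of the start, with matches to TGATGNAA on either strand in capitals.
Gars (chr6:55037881-55038020, plus strand): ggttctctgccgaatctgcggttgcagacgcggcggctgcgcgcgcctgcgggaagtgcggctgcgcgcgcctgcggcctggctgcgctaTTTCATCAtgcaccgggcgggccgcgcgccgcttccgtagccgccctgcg
Tars (chr15:11399639-11399778, minus strand): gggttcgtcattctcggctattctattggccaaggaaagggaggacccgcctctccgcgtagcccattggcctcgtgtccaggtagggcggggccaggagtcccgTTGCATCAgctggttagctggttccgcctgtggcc
Iars (chr13:49682010-49682149, plus strand): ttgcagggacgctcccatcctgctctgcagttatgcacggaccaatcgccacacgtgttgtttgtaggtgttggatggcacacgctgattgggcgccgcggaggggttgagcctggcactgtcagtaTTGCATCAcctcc
Aars (chr8:111033722-111033861, plus strand): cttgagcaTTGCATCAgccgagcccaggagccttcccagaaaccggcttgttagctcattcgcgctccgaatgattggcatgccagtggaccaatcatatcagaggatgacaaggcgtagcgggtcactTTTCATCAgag
Yars (chr4:129189783-129189922, plus strand): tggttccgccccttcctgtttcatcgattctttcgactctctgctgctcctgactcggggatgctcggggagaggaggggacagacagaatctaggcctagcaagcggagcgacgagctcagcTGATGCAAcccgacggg
Farsa (chr8:84856866-84857005, plus strand): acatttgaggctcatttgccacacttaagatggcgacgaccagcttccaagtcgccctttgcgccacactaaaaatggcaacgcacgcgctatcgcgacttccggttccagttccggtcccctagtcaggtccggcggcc
Kars (chr8:112011335-112011474, minus strand): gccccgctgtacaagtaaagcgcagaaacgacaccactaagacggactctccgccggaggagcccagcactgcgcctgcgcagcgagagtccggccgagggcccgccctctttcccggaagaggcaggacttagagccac
Qars (chr9:108507885-108508024, plus strand): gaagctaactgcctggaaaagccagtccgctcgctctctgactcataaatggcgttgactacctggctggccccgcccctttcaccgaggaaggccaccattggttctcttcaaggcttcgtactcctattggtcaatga
The matches lay at bases -30 to -23 in Gars, -15 to -8 in Tars, 8 to 15 in Iars, 4 to 11 in Yars, and -112 to -105 and 10 to 17 in Aars. Gars, Tars and Iars fell at 24 h, Aars and Yars were not called, and Farsa fell and Kars and Qars rose without a match in their entries. Eprs, Farsb, Sars, Fars2, Iars2, Rars2 and Tars2 also had entries without a match, and were not called at 24 h. The other called genes, Vars, Hars, Rars and Wars, are not in this tally. CACGTG, the E-box bound by MYC and MAX, stood in the entries of Aars, Ears2, Farsb, Iars and Tars, 5 of 17, and in 7.15% of all entries, at bases -69 to -64 in Iars and 20 to 25 in Tars. No CACGTG match overlapped a TGATGNAA match. A match is a description of these letters and not a measured site.

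Vars, the valine enzyme (probe set 1448472_at), had signals of 1142.5 and 1064.7 at 0 h, 740 and 838.5 at 6 h, 628.2 and 816.6 at 12 h, and 464.8 and 513.7 at 24 h. Both 24 h arrays lay below all of the other arrays. Its mean was 489.2 ± 34.6 at 24 h against 1104 ± 55 at 0 h, a log2 change of -1.12 ± 0.17, or 2.18-fold lower (limma, adjusted p = 0.000503). Gars, the glycine enzyme, with TGATGNAA in its promoter entry (1423784_at), had 3077 and 2483.5 at 0 h, 2994.7 and 2308.2 at 6 h, 2038.3 and 1515.3 at 12 h, and 1473.1 and 1142.5 at 24 h. Array 2 was the lower of the pair at each time, and neither the 12 h nor the 24 h arrays overlapped those of 0 h. Gars was 2.1-fold lower at 24 h (log2 change -1.07 ± 0.22, limma, adjusted p = 0.00242).

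Tars, the threonine enzyme, which also holds that motif (1460323_at), had 1873 and 1801.4 at 0 h, 1615.9 and 1792.3 at 6 h, 1174.9 and 1273.3 at 12 h, and 771.1 and 1036.5 at 24 h. The 4 times were in falling order with no overlap between them. The change at 24 h was -1.01 ± 0.18 on the log2 scale (limma, adjusted p = 0.00103). Farsa encodes the alpha subunit of the phenylalanine enzyme, which works as a tetramer with the beta subunit from Farsb. Farsa (1424907_a_at) had 679.9 and 685.7 at 0 h, 570.8 and 617 at 6 h, 518.8 and 500.5 at 12 h, and 333.3 and 363.3 at 24 h, again in falling order with no overlap. Its log2 change at 24 h was -0.91 (95% interval -1.24 to -0.58; limma, adjusted p = 0.00072). Farsb (1423709_s_at) had 1582.7 and 1348.6 at 0 h, 1791.4 and 1831.7 at 6 h, 1598.9 and 1775 at 12 h, and 1428.1 and 1380.5 at 24 h. The beta subunit was not called at any time, with a log2 change of -0.06 at 24 h (95% interval -0.41 to 0.29). The 2 intervals do not overlap, but the difference between the subunits was not itself tested. Vars, Gars, Tars, Farsa and the arginine enzyme Rars kept their 24 h calls under all 17 alternative settings tried.

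Hars and Iars had smaller changes. Hars, the histidine enzyme (1438510_a_at), had 2663.1 and 2527.1 at 0 h, 2150.3 and 2617.6 at 6 h, 2335.9 and 2736.5 at 12 h, and 1769.9 and 1814.2 at 24 h. Only the 24 h arrays lay apart from those of 0 h, 1.44-fold lower (log2 change -0.53 ± 0.17, limma, adjusted p = 0.024). Iars, the isoleucine enzyme (1426705_s_at), had 1456 and 1340.6 at 0 h, 1077.4 and 1088.8 at 6 h, 1012.3 and 842.7 at 12 h, and 1009.1 and 943.1 at 24 h. Every later array was below both 0 h arrays, and the 12 h and 24 h arrays were at like levels. Iars was 1.42-fold lower at 24 h (log2 change -0.50 ± 0.16, limma, adjusted p = 0.0238). Both calls were lost when any of the 4 arrays compared was left out (limma, adjusted p = 0.068 to 0.106 for Hars and 0.0572 to 0.117 for Iars) and with no filter on low signals (0.0639 and 0.0614).

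Among the genes that rose, Rars, the arginine enzyme (1416312_at), had the largest change, with 2412.6 and 2493.9 at 0 h, 2841.3 and 3665.1 at 6 h, 3970 and 5114.6 at 12 h, and 4850.7 and 4602.2 at 24 h. The arrays of 12 and 24 h lay above all earlier ones. Rars averaged 4726 ± 176 at 24 h against 2453 ± 57.5 at 0 h, 1.91-fold higher (log2 change 0.94 ± 0.18, limma, adjusted p = 0.00213). Kars, the lysine enzyme (1416068_at), had 1620.2 and 1885 at 0 h, 1878.6 and 2106 at 6 h, 2262.4 and 2740.7 at 12 h, and 2451.9 and 2592.9 at 24 h. It was 1.43-fold higher at 24 h (log2 change 0.52 ± 0.17, limma, adjusted p = 0.0266), with no overlap between the 24 h and 0 h arrays.

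Qars, the glutamine enzyme (1423712_a_at), had 3050.6 and 2558.9 at 0 h, 2990.5 and 3048.1 at 6 h, 3804.8 and 3594.4 at 12 h, and 3591.7 and 4188.7 at 24 h. The 6 h arrays overlapped those of 0 h and the later ones did not, and the log2 change at 24 h was 0.47 ± 0.16 (limma, adjusted p = 0.0365). Wars, the tryptophan enzyme, whose human counterpart is induced by interferon (1434813_x_at), had 744.8 and 799.5 at 0 h, 1061.4 and 1003 at 6 h, 979.3 and 1030.7 at 12 h, and 984.8 and 1161.1 at 24 h. All later arrays were above both 0 h arrays, with the arrays of 6, 12 and 24 h overlapping, and the call was at 24 h (log2 change 0.45 ± 0.16, limma, adjusted p = 0.0348). The rises of Kars, Qars and Wars were lost with no filter (limma, adjusted p = 0.0698, 0.0858 and 0.0809). Kars was also lost without array 1 of 0 h (0.155) or either 24 h array (0.0695 and 0.109), Qars without array 2 of 0 h (0.207) or 24 h (0.191) and Wars without either 0 h array (0.146 and 0.0794) or array 2 of 24 h (0.193). Qars and Wars were not called when only the 4 arrays compared were fitted (0.0572 and 0.0535).

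**Figure D1:**
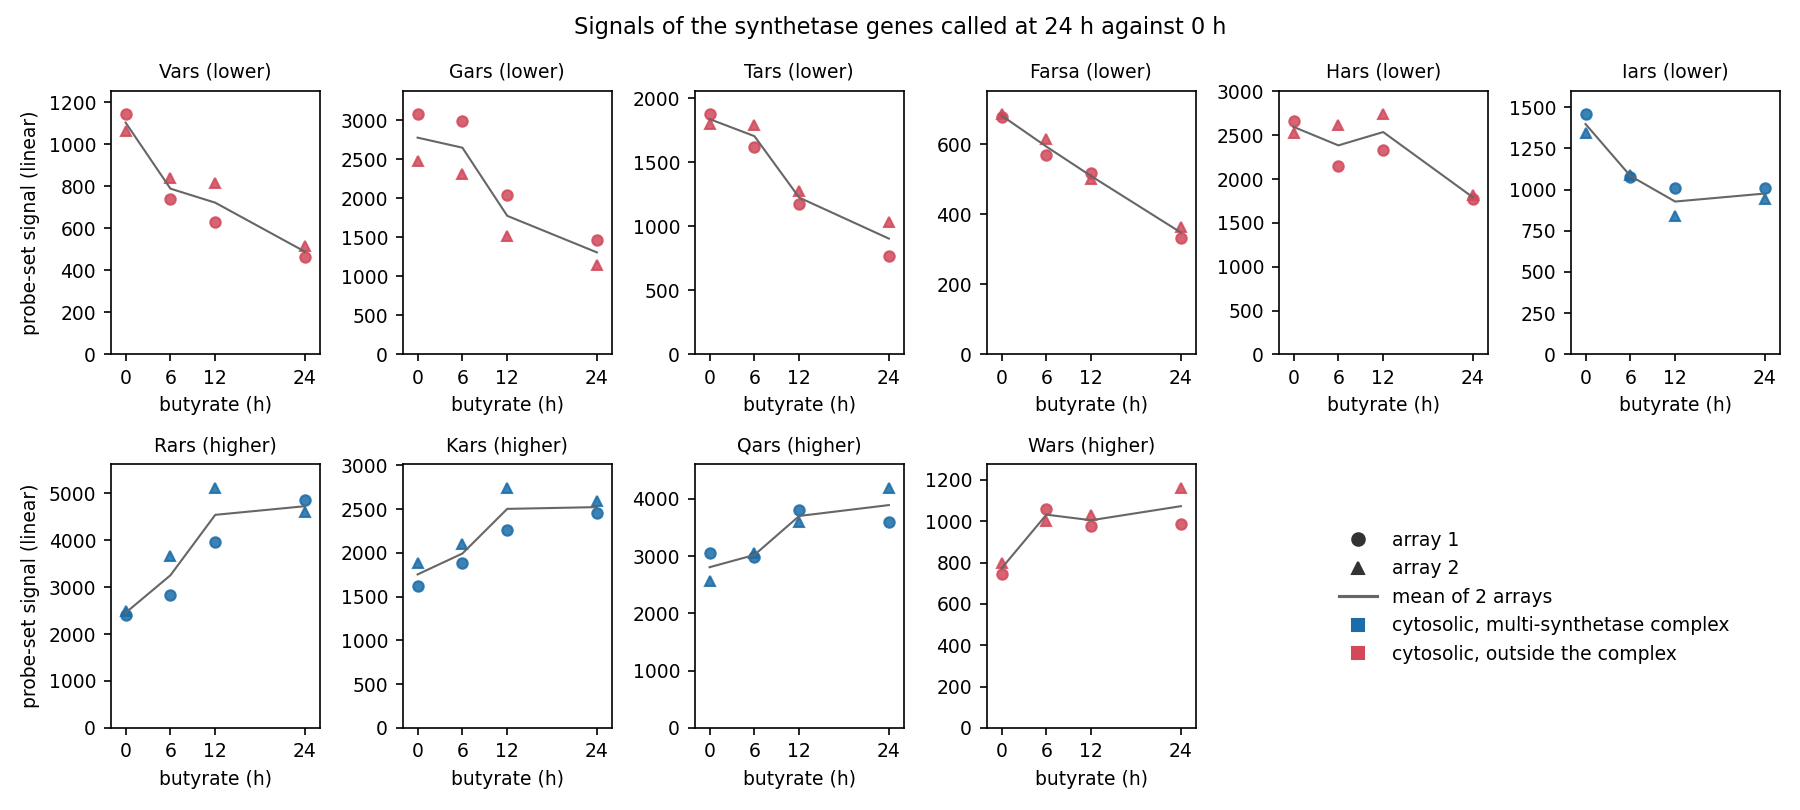
Probe-set signal (linear, from 0) against hours of 2 mM butyrate for the 10 synthetase genes called at 24 h against 0 h, with a circle for array 1, a triangle for array 2, a line through the means, and blue for members of the multi-synthetase complex and red for the other cytosolic enzymes. Vars, Gars, Tars and Farsa were still lower at 24 h than at 12 h, while Rars and Kars were at like levels at 12 and 24 h.

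The other cytosolic genes were not called at 24 h. Nars, for asparagine (1452866_at), had 6078.5 and 5710.1 at 0 h, 4891.1 and 5041.9 at 6 h, 4764.2 and 5044.6 at 12 h, and 4635.4 and 4533.2 at 24 h, with all later arrays below those of 0 h. Cars, for cysteine (1452394_at), had 1736.8 and 2054.6 at 24 h against 1383.7 and 1505.6 at 0 h, without overlap. Yars, for tyrosine, had 602 and 376.7 at 24 h against 590.1 and 417.7 at 0 h, so its arrays overlapped and stood far apart at both times. Aars, Eprs, Nars and Yars, the enzymes for alanine, glutamate and proline, asparagine, and tyrosine, had log2 changes of -0.28, -0.20, -0.36 and -0.06. Cars, Lars and Sars, the last pair for leucine and serine, had log2 changes of 0.38, 0.04 and 0.38. With the replicate number as a block, Nars was called lower (limma, adjusted p = 0.0448) and Cars and Sars higher (0.0408 and 0.0426). Quantile normalization (limma, adjusted p = 0.0461) and eBayes with a variance trend (0.0391) called Nars too. The second probe sets of Nars (1428666_at) and Sars (1452000_s_at) had smaller log2 changes at 24 h, of -0.09 and 0.06. Sars had 5087.1 and 6782.9 at 24 h against 4291.5 and 4719.7 at 0 h, the arrays of 24 h being far apart, and it was called without array 1 of 24 h (limma, adjusted p = 0.0476). For Lars the 95% interval of the change ran from -0.31 to 0.40.

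**Figure D2:**
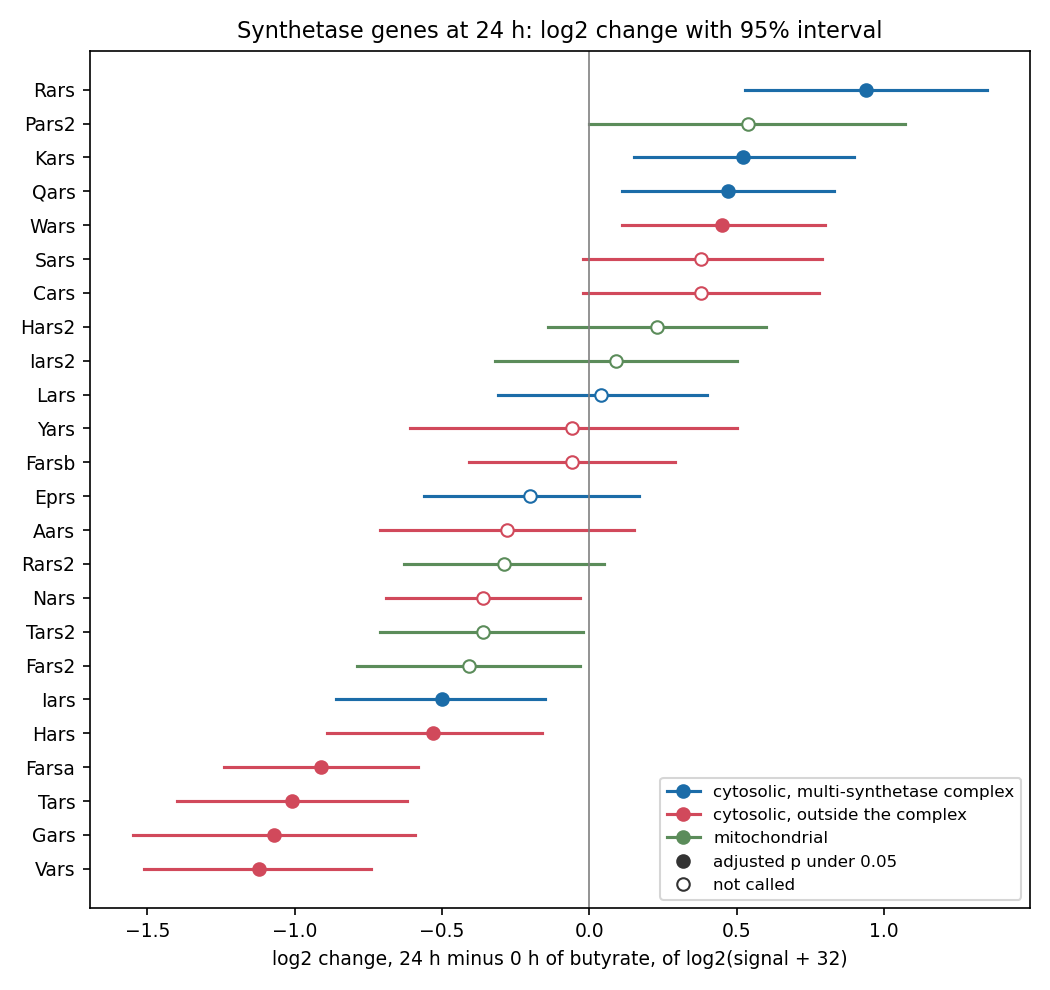
Log2 change at 24 h against 0 h (points) with its 95% interval (bars) for the 24 synthetase genes tested, ordered by the change, with blue for the complex, red for other cytosolic and green for mitochondrial enzymes, filled where the adjusted p was under 0.05. Vars is lowest at -1.12 and Rars highest at 0.94, and no mitochondrial gene is filled.

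The cytosolic enzymes were then divided, from general knowledge and after their values had been seen, into members of the multi-synthetase complex and those outside it. Of the 6 complex enzymes measured (Eprs, Iars, Kars, Lars, Qars and Rars), 3 were higher and 1 lower at 24 h, with a median log2 change of 0.26. These are not the whole complex, since Dars and Mars, for aspartate and methionine, were not among the 26 genes found. Of the 12 outside the complex, 1 was higher and 5 lower, with a median of -0.32. The shares called were 66.7% and 50%, beside 48.1% of all genes (24.6% higher and 23.5% lower). The main probe sets of the complex did not share a direction: Rars was at 0.94 and Iars at -0.50, with Lars and Eprs between them. The fall of Iars rests on its main probe set, since the second (1452154_at) had 0.10. Its call was not stable either, as given above. By the class of the catalytic fold, 3 of 8 class I enzymes rose and 2 fell, and 1 of 9 class II enzymes rose and 4 fell, leaving out Eprs, which holds a domain of each class. The shares called, 62.5% and 55.6%, lay near the 48.1% of all genes. These counts rest on few genes and carry no test. With the replicate block the enzymes outside the complex had 3 higher and 6 lower, beside 3969 of all 7340 genes called. With no filter, 1 complex enzyme was higher and 0 lower at 24 h, and 0 of those outside it were higher. In that fit 3051 of 12393 genes were called. Without array 2 of 24 h, fewer complex enzymes and fewer of all genes were called. The fall in the complex and the rise outside it were also lost without some other single arrays of 0 or 24 h, where fewer of all genes were called too.

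**Figure D3:**
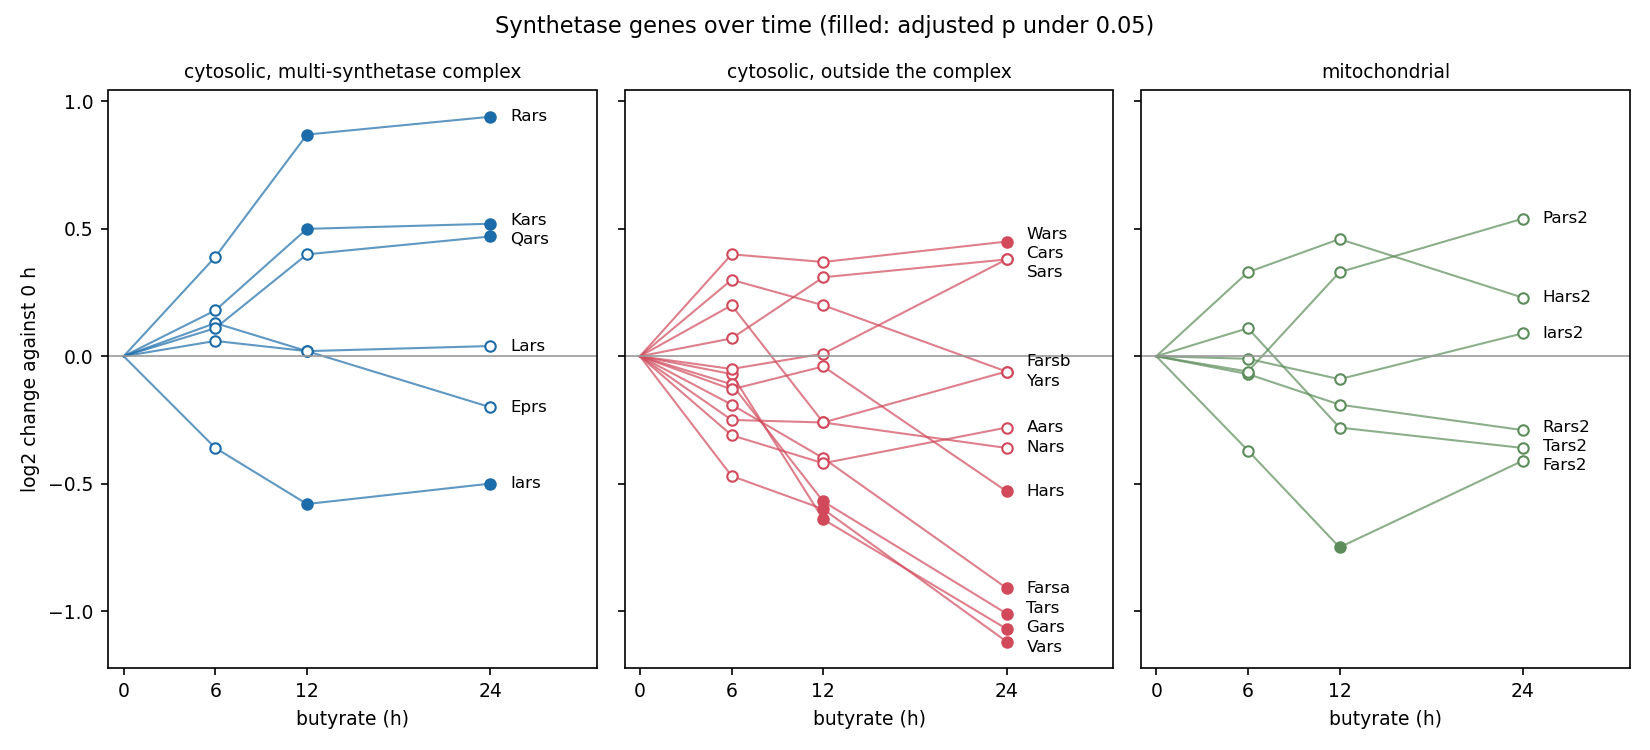
Log2 change against 0 h (vertical axis) by hours of butyrate (horizontal axis) for each synthetase gene tested, in panels for complex, other cytosolic and mitochondrial enzymes, filled where the adjusted p was under 0.05. The 4 lines that end lowest (Vars, Gars, Tars and Farsa) are outside the complex, as are 12 of the 18 cytosolic genes. Fars2 is the mitochondrial gene with a filled point, at 12 h.

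The mitochondrial enzymes had no called gene at 24 h. Of the 8, 6 passed the filter, and at 24 h 0 of these were called by limma, beside 48.1% of all genes, with 3 at an unadjusted p under 0.05, beside 54.5%. Their median log2 change was -0.10, beside -0.13 for the 18 cytosolic genes, of which 10 were called, or 55.6% (8 of 16 without Gars and Kars), near the share of all genes. Fars2, the mitochondrial phenylalanine enzyme (1431354_a_at), had 473.1 and 430.4 at 0 h, 343.3 and 338.3 at 6 h, 229.5 and 285.1 at 12 h, and 371.1 and 297 at 24 h. All later arrays were below those of 0 h, with the lowest at 12 h. It was called at 12 h (log2 change -0.75 ± 0.17, limma, adjusted p = 0.00761; 0.0532 without array 1 of 0 h and 0.062 without array 1 of 12 h) and not at 24 h (-0.41, adjusted p = 0.0741).

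Tars2, for threonine, had 495.3 and 473.3 at 24 h against 630.1 and 631.1 at 0 h, without overlap. It had a log2 change of -0.36 at 24 h and was not called (limma, adjusted p = 0.0799), beside -1.01 for its cytosolic counterpart Tars. Rars2 had -0.29 beside 0.94 for Rars, Iars2 had 0.09 beside -0.50 for Iars, and Hars2 had 0.23 beside -0.53 for Hars, so the mitochondrial and cytosolic estimates had opposite signs for arginine, isoleucine and histidine. For isoleucine this rests on the main Iars probe set, since the second (1452154_at) had 0.10, while the second Hars probe set kept its sign at -0.15. None of these 3 mitochondrial genes was called at 24 h, and differences within a pair were not tested. Hars2 had 276.3 and 320.8 at 12 h against 193 and 222.4 at 0 h, without overlap, which missed the threshold (limma, adjusted p = 0.0524) and passed it with the replicate block (0.0199) and under the stricter filter (0.0482). Pars2, for proline, had 193.9 and 238.9 at 24 h against 127.3 and 150.7 at 0 h, a log2 change of 0.54 that was called when only the 4 arrays compared were fitted (limma, adjusted p = 0.0352 against 0.0917).

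Ears2 and Sars2, the mitochondrial enzymes for glutamate and serine, did not pass the filter. Ears2 (1451471_at) had 147.5 and 136.3 at 0 h, 85.8 and 104.7 at 6 h, 63.2 and 63.6 at 12 h, and 84.6 and 38.9 at 24 h. Every later array was below both 0 h arrays, and with no filter Ears2 was called lower at 24 h (log2 change -0.93 ± 0.24, limma, adjusted p = 0.0271). Sars2 (1448522_at) ranged over 58.5 to 171.8 on the 8 arrays and was not called with no filter (limma, adjusted p = 0.329 at 24 h). The median change of the mitochondrial genes at 24 h was -0.33 with both included.

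At 6 h against 0 h, 0 of the 24 synthetase genes were called by limma, beside 15.7% of all genes (6.68% lower and 9.06% higher), and 3 had an unadjusted p under 0.05, beside 30.1%. The arrays of the 2 times did not overlap for 12 of the 24, beside 57.2% of all genes. The smallest adjusted p was 0.0973, that of Vars (log2 change -0.47 ± 0.17), and Wars was next with 0.40 ± 0.16 (adjusted p = 0.113). At 12 h against 0 h, 5 genes were lower and 2 higher, or 29.2%, beside 35.6% of all genes (17.5% lower and 18.1% higher). At that time 11 had an unadjusted p under 0.05, beside 45.5%, and for 18 the arrays did not overlap those of 0 h, beside 70.5%. Those that fell by 12 h were Fars2, Gars, Vars, Iars and Tars, with log2 changes of -0.75, -0.64, -0.60, -0.58 and -0.57, and those that rose were Rars (0.87, limma, adjusted p = 0.00504) and Kars (0.50, adjusted p = 0.0399). Leaving out any single array of 0 or 12 h left fewer of the 5 falls called, or none, and fewer of all genes were called in those fits too. Kars was called at 12 h in 10 of 17 alternatives and Rars in all 17. The Kars call was lost without either 0 h array (limma, adjusted p = 0.201 and 0.0642), array 2 of 12 h (0.23) or either 24 h array (0.0521 each), with no filter (0.102) and with only the 4 arrays compared (0.055). With the replicate block Farsa was called as well (limma, adjusted p = 0.0371).

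Between neighbouring times, which do not share the 0 h arrays, 0 of the 24 genes were called by limma. At 12 h against 6 h, 4 had an unadjusted p under 0.05, beside 20.5% of all genes, and 4.17% of all genes were called (2.14% lower and 2.03% higher). Arrays did not overlap for 11 of the 24, beside 49.2%. Gars changed most, with a log2 change of -0.57 (limma, adjusted p = 0.171, and 0.0329 with the replicate block). At 24 h against 12 h, 4 had an unadjusted p under 0.05, beside 19.4%, and 5.4% of all genes were called (3.58% lower and 1.81% higher). Arrays did not overlap for 14 of the 24, beside 49.5%. The smallest adjusted p there was that of Farsa, with a log2 change of -0.51 (limma, adjusted p = 0.0847, and 0.047 with the replicate block).

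Of the genes of the 3 scaffold proteins that hold the multi-synthetase complex together, 2 were lower and 1 higher at 24 h. Of all genes, 48.1% were called then (23.5% lower and 24.6% higher). Eef1e1, the scaffold protein p18 (1449044_at), had 1911.8 and 1693.8 at 0 h, 1052.4 and 1070.7 at 6 h, 908.2 and 945 at 12 h, and 802.2 and 774.3 at 24 h. All times were in falling order with no overlap, and it was 2.23-fold lower at 24 h (log2 change -1.16 ± 0.15, limma, adjusted p = 0.000173). Aimp2, the scaffold p38 (1424151_at), had 3111.3 and 2942.1 at 0 h, 2143.9 and 1704.8 at 6 h, 1839.8 and 1608.6 at 12 h, and 1721.4 and 1853.5 at 24 h. All later arrays were below those of 0 h and overlapped each other, and the fall at 24 h was 1.68-fold (limma, adjusted p = 0.00452). Aimp1, the scaffold p43 (1416486_at), had 2659.3 and 2488 at 0 h, 2839.1 and 3226.1 at 6 h, 3139.7 and 3366.3 at 12 h, and 4122.7 and 3895.5 at 24 h. It was 1.55-fold higher at 24 h (log2 change 0.63 ± 0.15, limma, adjusted p = 0.00682).

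Eef1e1 and Aimp2 were already lower at 6 h, when no synthetase gene was called (limma, adjusted p = 0.00949 and 0.0274). Of all genes, 15.7% were called at 6 h and 6.68% were lower. The 6 h call of Eef1e1 was lost without array 1 of 0 h (limma, adjusted p = 0.0717). That of Aimp2 was lost without array 1 or 2 of 0 h (0.133 and 0.093), without array 2 of 6 h (0.147), with no filter (0.0954) and with only the 4 arrays compared (0.0506). All 3 calls at 24 h held under every alternative.

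**Figure D4:**
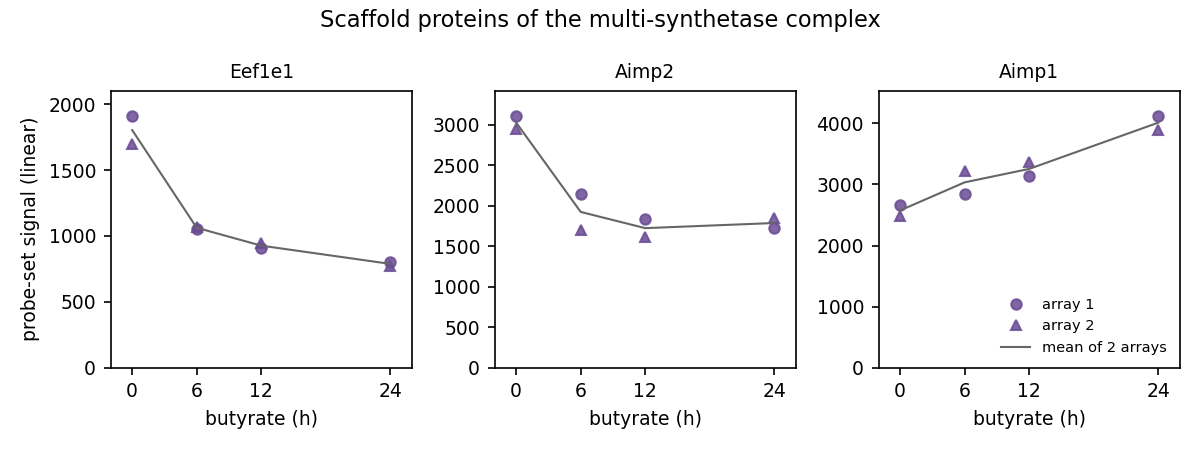
Probe-set signal (linear, from 0) of Eef1e1, Aimp2 and Aimp1 against hours of 2 mM butyrate, with a circle for array 1, a triangle for array 2 and a line through the means. Eef1e1 and Aimp2 lie below their 0 h arrays from 6 h on, and Aimp1 lies above them.

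Genes around the synthetases were read from lists. Of 47 tested genes of tRNA processing, modification and export, 21 were lower and 3 higher at 24 h, beside 23.5% lower and 24.6% higher of all genes, with a median log2 change of -0.38 against 0.04 for all genes. Wdr4, a subunit of the tRNA guanine methyltransferase, was 4.01-fold lower, and Qtrt1, which places queuine in tRNA, 3.7-fold. Ssb, the La protein that binds new RNA polymerase III transcripts, was 2.27-fold lower, with a call lost without array 2 of 0 h (limma, adjusted p = 0.065) or array 1 of 24 h (0.0647), and Rpp30, a subunit of RNase P, was 2.13-fold lower. The 3 rises of the list became 0 with no filter, where 3051 of 12393 genes were called. Fewer of its falls or rises were called without some single arrays of 0 or 24 h, where fewer of all genes were called too. Among 9 tested synthetase-related enzymes outside the rule, 0 were higher and 3 were lower, beside 23.5% of all genes lower: Dtd1, which removes D-amino acids from tRNA (2.71-fold), Qrsl1, a subunit of the mitochondrial glutamyl-tRNA amidotransferase (1.81-fold), and the editing factor Aarsd1 (1.46-fold). Aarsd1 was called in neither fit that left out a 0 h array (limma, adjusted p = 0.127 and 0.0828), nor without array 2 of 24 h (0.247), with no filter (0.0816) or with only the 4 arrays compared (0.0518).

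Of 38 tested amino acid response genes other than synthetases, 14 were lower and 7 higher at 24 h, beside 23.5% and 24.6% of all genes, with a median log2 change of -0.28. The list is not limited to genes that ATF4 induces. It also holds the initiation genes Eif2ak3, Eif2ak4, Eif2s2, Eif2b1, Eif2b2, Eif2b4 and Eif2b5, of which Eif2b4 was called lower and Eif2b2 higher. The 21 called of 38 are near the 48.1% of all genes. Those with the largest changes were Ddit3 and Atf3, transcription factors of the stress response, which rose 12.3-fold and 4.71-fold, and Nupr1, a stress-induced chromatin protein, and Shmt2, the mitochondrial serine hydroxymethyltransferase, which fell 4.25-fold and 3.1-fold. Asns, the asparagine synthetase gene used as a marker of amino acid shortage, and Atf4 itself were chosen after their values were seen. Asns had a log2 change of -0.50 at 24 h (limma, adjusted p = 0.0226), a call lost without either 0 h array (0.0735 and 0.0912), without array 1 of 24 h (0.124) and with no filter (0.058). Atf4 had -0.42 and was not called (limma, adjusted p = 0.0933, and 0.028 with the replicate block).

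Translation factors work with the loaded tRNAs at the ribosome. Of 10 tested cytosolic elongation and release factors, 2 were higher (Eef1a2 and Eefsec) and 2 lower (Gspt1, 1.75-fold, and Abce1) at 24 h, with a median of 0.04. Of 8 tested mitochondrial factors, 1 was higher (Tufm) and 1 lower (Gfm1), with a median of 0.03. Neither count stood above the 48.1% of all genes called. Apart from Gspt1, each of these calls was lost when some single array was left out, for example Eef1a2 without array 2 of 0 h (limma, adjusted p = 0.251), Eefsec without array 1 of 0 h (0.0523), Abce1 without array 1 of 24 h (0.185), Tufm without array 2 of 24 h (0.263) and Gfm1 without array 2 of 0 h (0.191).

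Of the 26 genes, 14 had more than 1 probe set, and 15 further probe sets passed the filter. Their log2 change at 24 h had the sign of the main probe set in 11 of the 15, and in 5 of the 7 that belong to called genes. All 3 further Wars probe sets were higher, by 0.26 to 0.38. The second Hars probe set had -0.15 beside -0.53. The second Iars probe set (1452154_at) had 956.3 and 538.3 at 24 h against 630.5 and 705.6 at 0 h, a log2 change of 0.10 beside -0.50, with the 24 h arrays on both sides of those of 0 h. For Qars, 1456726_x_at had 0.75 and 1456213_x_at had -0.44, beside 0.47 for the main probe set. Probe sets whose names end in _x_at or _s_at can bind transcripts of other genes or several transcripts. This bears on the main probe sets of Wars, Iars, Farsb and Eprs and on further probe sets of other genes, among them both of those given for Qars. Vars, Gars, Tars, Farsa, Rars and Kars had only 1 probe set each, so their changes could not be set beside those of another.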

How the data were processed

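The platform, per the labels, is the Affymetrix Mouse Expression Array 430A, with phycoerythrin as the label. The authors deposited one linear intensity per probe set and array, scaled to a common 2% trimmed mean, with no detection calls; the sources used here do not name the summarising software. Precision is limited by 2 arrays per time. From 21.2% to 26.4% of an array's signals lay below the pseudocount of 32.

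Probe sets with 1 gene in the platform annotation and at least 2 of 8 arrays above 144.7 were kept (11505), then 1 per gene by highest mean (7340 genes). All 8 arrays were fitted with limma 3.58.1 in R 4.3.3 (lmFit and eBayes, residual df 4, prior df 6.37), after tests on simulated data. Of changes planted there at 24 h, 88 of 97 of log2 size 1 and 18 of 91 of size 0.5 were called in the right direction. That run had 116 calls, 10 of them false, far fewer than the real arrays, so its shares need not hold for them. A change near 0.5 that was not called can have been missed. An exact permutation test of 2 against 2 arrays cannot go below p = 0.333 and was not used. Named genes are all synthetase genes plus at most 4 called members of each context list by size of the 24 h change; Asns and Atf4 were added after their values were seen. Members and lists were chosen with earlier results of these data known.

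Replicate numbers recur at every time. The array 2 minus array 1 differences had correlations of 0.125 to 0.382 across genes for the 6 pairs of times, each over 0.1, which meets the rule for pairing, from the data and not from a label. The fit reported has no block, so its calls are unpaired; the fit with the replicate number as a block is an alternative, and the calls it changed stand beside the results. Alternatives were other pseudocounts (16 and 64), no filter, a filter of 4 arrays, quantile normalization, every named probe set tested, eBayes with a trend and robust variance, only the arrays compared, the replicate block, and leaving out each array.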

Additional observations from a re-analysis of the deposited data

How the results depend on the processing

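Of 2040 recomputed changes of single synthetase genes, 1979 kept their side of the threshold, 48 lost a call, 13 gained one and 0 changed sign with a call. With no filter on low signals, which tests 12393 genes and admits Ears2 and Sars2, the counts at 12 h were 1 higher and 1 lower and the rises at 24 h 1; the mitochondrial median was -0.24 at 12 h, -0.33 at 24 h and -0.2 for 12 h against 6 h, and the cytosolic minus mitochondrial difference 0.22, 0.2 and 0.13. Of all 12393 genes, 1899 were called at 12 h and 3051 at 24 h with no filter. With only the 4 arrays compared, 1 synthetase gene was higher at 12 h, and 2650 of all 7340 genes were called. With the replicate block, 1 gene was lower at 12 h than at 6 h (Gars) and 1 at 24 h than at 12 h (Farsa); the calls it changed for synthetase genes are given with the results.

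Leaving out 1 array gave 1 to 2 higher and 0 to 5 lower at 12 h, and 1 to 4 higher and 4 to 6 lower at 24 h. The cytosolic median then ranged from -0.07 to 0.04 at 6 h, -0.07 to -0.01 at 12 h, -0.2 to -0.12 at 24 h, -0.08 to 0.01 for 12 h against 6 h and -0.12 to 0.02 for 24 h against 12 h, and the mitochondrial median from -0.11 to 0.12 at 6 h. The difference of the medians ranged from -0.19 to 0.15 at 6 h, -0.11 to 0 at 24 h, -0.02 to 0.13 for 12 h against 6 h and -0.14 to -0.02 for 24 h against 12 h. The fits that left out an array had fewer arrays, and the fit with no filter had 2 more synthetase genes. The cause of the shifts was not tested. Quantile normalization moved the median of all genes by under 0.1 on the log2 scale. Signals near the pseudocount, such as those of Ears2, limit what can be said of low genes.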
